A study of Rattus norvegicus with 6 samples.

Results

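The collagen genes were taken as every row of the gene count table whose name is Col, a number, a and a number, such as Col1a1. The rule found 43 genes among 33508 in the table. Enough reads were counted for 24 of the 43 to be tested, within 12104 genes tested in all. By the kind of assembly their chains form, 11 of the 43 were fibrillar, 9 fibril-associated, 6 of basement membranes, 5 of beaded filaments, 3 of hexagonal networks, 2 multiplexins, 4 transmembrane and 3 of other kinds.

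RNA-seq was performed on rat bone marrow mesenchymal stem cells (BMSCs) carrying an FNDC5 lentivirus (BMSCs-OE-FNDC5, n = 3 libraries) and on cells carrying a negative control lentivirus (BMSCs-OE-NC, n = 3 libraries). FNDC5 is the membrane protein whose cleaved ectodomain is irisin, and the study asked how its overexpression acts on BMSCs under hypoxia and serum deprivation (H/SD). Both groups were kept in H/SD for 24 h, in medium without glucose and serum and in 1% O2, 94% N2 and 5% CO2. No library of untreated cells or of cells in normal oxygen is part of the comparison, so every value below is a value under H/SD. The cells were from male Sprague-Dawley rats aged 2 months and had been passaged 3 times. Virus of either kind was added with polybrene at 6 μg/ml (multiplicity of infection 10), so that the control cells were transduced as well. The promoter that drives FNDC5 is not given in the sources used here. The labels call the libraries of a group biological replicates, but nothing says whether each had its own rat, culture or transduction. What the p-values measure is the spread between these libraries, which may be technical. For 1 gene, an exact permutation test with 3 libraries against 3 could not go below p = 0.1.

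Collagens are secreted proteins in which 3 chains wind into a triple helix. Fibrillar collagens pack into the banded fibers that give bone, skin and tendon their strength, fibril-associated collagens sit on the surface of those fibers, collagen IV forms the sheet of basement membranes and collagen VI forms beaded microfilaments around cells. The chains are hydroxylated and folded in the endoplasmic reticulum, trimmed outside the cell and joined by lysyl oxidases, and BMSCs are a cell type known for secreting fibrillar collagen.

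Values are CPM, the reads counted for a gene in every 1000000 reads of its library, with library sizes scaled by TMM (trimmed mean of M values). A log2 fold change compares BMSCs-OE-FNDC5 with BMSCs-OE-NC, so a value of 1 is a doubling and a value below 0 is a lower level in BMSCs-OE-FNDC5. The p-values came from edgeR's quasi-likelihood test, adjusted by Benjamini-Hochberg over all 12104 genes, and a gene passed at an adjusted p under 0.05. A stricter count also required an absolute log2 fold change over 1. Levels of different genes were compared in FPKM, which also divides by gene length.

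The libraries held 16640635 to 17965722 counts, and the control libraries had TMM factors of 1.13 to 1.14 and the FNDC5 libraries of 0.877 to 0.882. Fndc5 itself had 17 to 25 counts in the control libraries and 64195 to 65589 in the BMSCs-OE-FNDC5 libraries, the direction the labels give. All 6 mesenchymal stem cell markers listed (Nt5e, Thy1, Eng, Cd44, Itgb1, Pdgfrb) were found, at a summed 2834 to 2857 CPM in BMSCs-OE-NC, against 1982 to 2024 CPM in BMSCs-OE-FNDC5. The members went both ways, as Thy1, Cd44 and Eng rose (log2 fold changes 1.29, 0.41 and 0.26) and Pdgfrb, Nt5e and Itgb1 fell (-1.61, -1.30 and -1.02), and Pdgfrb alone went from 1332 to 435 CPM. Of other cell types, the endothelial genes Cdh5, Kdr and Emcn, the blood cell gene Ptprc and the epithelial genes Epcam, Cdh1 and Krt18 were at 0 counts in all 6 libraries. The blood cell and epithelial lists each had 1 tested gene, Cd68 (2.39 and 4.01 CPM) and Krt8 (1.75 and 3.45 CPM), and both rose (0.75 and 0.98). Of the osteoblast list only Runx2 was tested and it fell (-1.38), with Alpl at 0, and the list summed to 4.86 to 6.28 CPM in the controls and 1.59 to 2.98 CPM in the FNDC5 libraries. Of the chondrocyte list, Acan rose (1.03), Sox9 fell (-1.08) and Hapln1 did not pass, with sums of 192 to 208 CPM and 349 to 365 CPM. Markers of smooth muscle and pericytes did not move as one. All 5 of them were in the table and 3 were tested. Des and Acta2 rose (1.72 and 1.54), while Myh11 did not pass (-0.185, at 2.21 and 1.94 CPM) and Rgs5 was at 0. The sum of the list was 1120 to 1136 CPM in BMSCs-OE-NC, against 3643 to 3725 CPM in BMSCs-OE-FNDC5, mostly from Des. The part of any other cell type in the collagen levels was not tested. In bulk RNA fewer cells of a type and less RNA per cell cannot be told apart. The labels' extraction text names retinas and the submitters' notes name the mouse build mm10, although the table's gene identifiers are rat and bone marrow is the labelled source.

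In BMSCs-OE-FNDC5, 5 of the 24 tested collagen genes rose and 13 fell, and the other 6 did not pass. Among all genes tested, 36.9% rose and 38.8% fell, so the share of collagens that rose was below that background and the share that fell was above it. Past both thresholds, 3 collagens rose and 9 fell, where the background was 9.84% higher and 17.5% lower. The 2 groups of libraries did not overlap for 19 of the 24, in 5 of which BMSCs-OE-FNDC5 was higher and in 14 lower, and for 78.3% of all genes tested. The median log2 fold change was -0.30 over the 24 collagens and -0.04 over all genes tested. The 5 that rose were Col3a1, Col5a3, Col6a1, Col6a2 and Col15a1. Both tested beaded filament genes rose. All 4 tested fibril-associated genes, all 3 tested basement membrane genes, both tested hexagonal network genes and the 1 tested transmembrane gene fell, while fibrillar genes and multiplexins went both ways. Differences between types were not tested.

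**Figure D1:**
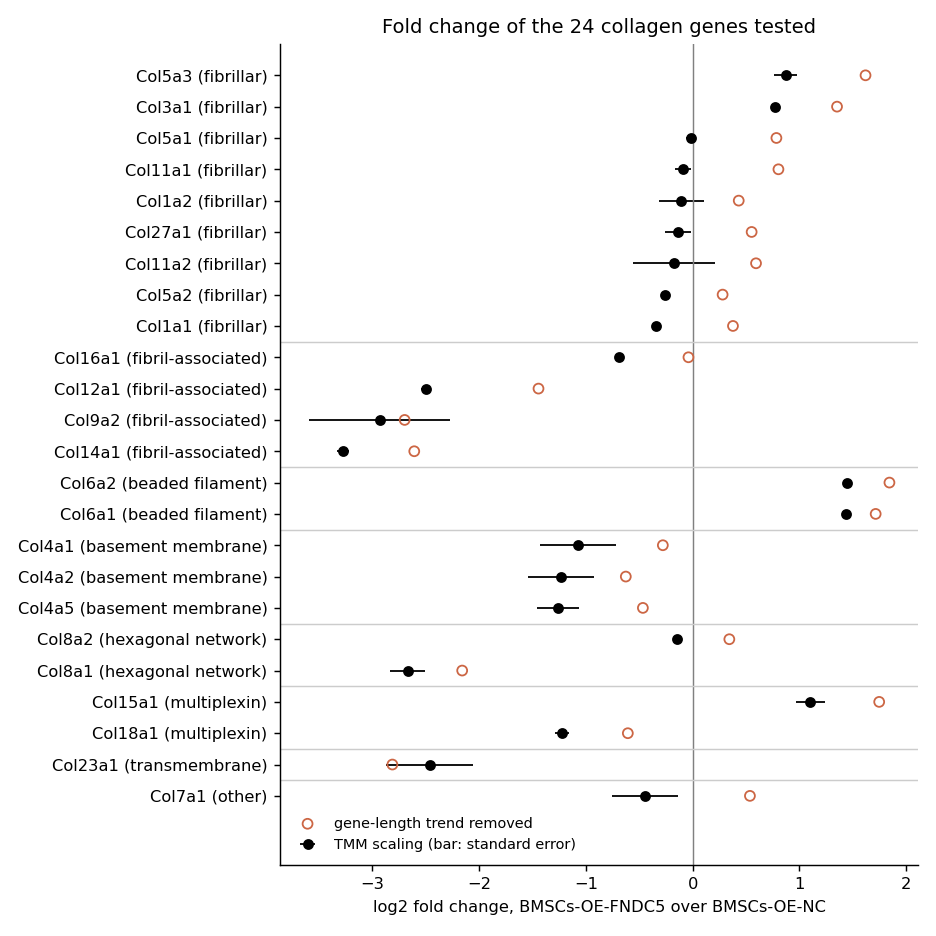
The horizontal axis is the log2 fold change of BMSCs-OE-FNDC5 over BMSCs-OE-NC for each of the 24 collagen genes tested, grouped by type. Filled points with standard error bars are from TMM scaling and open circles are from the fit with the gene-length trend removed. Col6a1 and Col6a2 stood near 1.44 and Col14a1 at -3.28, and the open circles lay to the right of the filled points for every gene but Col23a1.

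Gene length has to be read beside these counts. Across all 12104 genes, log2 fold change and gene length had a Spearman rho of -0.44, so longer genes tended to be lower in BMSCs-OE-FNDC5. Collagen genes are long. The 24 tested had a median length of 5217 bases in the count file, against 2262 bases for all genes tested. Of the 2346 tested genes with 4000 bases or more, 13.7% rose and 68.3% fell, with 36.6% lower past both thresholds, and their median log2 fold change was -0.71. The 20 collagens of that length had a median of -0.30, and 3 of them rose and 11 fell, 7 past both thresholds. The count past both thresholds was thus near that of genes of the same length class. The share that fell (11 of 20) was below the 68.3% of that class, and the median of -0.30 was closer to 0 than -0.71. Within the 24 collagens the rho was -0.04 (n = 24 genes that share the 6 libraries, given as a description), so no order by length was seen among them.

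An alternative fit took out, library by library, the trend of log2 counts over gene length. There 11 collagens rose (background 38.4%), 7 fell (background 33.5%) and 6 did not pass, with a median log2 fold change of 0.36. All 5 that rose with TMM scaling also rose in that fit, and 7 of the 13 that fell also fell. Whether the length trend came from the cells or from the libraries was not tested. With library size as the only scaling, 5 collagens rose and 17 fell. That scaling moved the median of all genes by -0.37, and relative to that shift the collagen median of -0.67 was again -0.30. Upper-quartile scaling moved the median of all genes by -0.10.

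**Figure D2:**
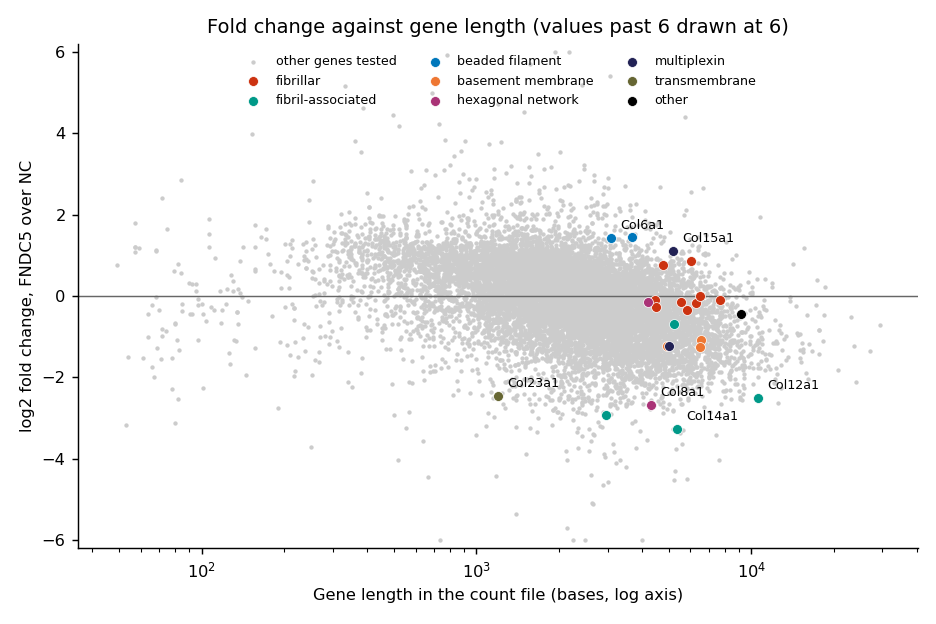
The vertical axis is the log2 fold change and the horizontal axis, on a log scale, is the gene length in bases as the count file gives it, with collagens coloured by type and all other tested genes in grey. The grey cloud tilts down with length (rho -0.44), Col6a1 and Col15a1 sit in its upper part and Col12a1, Col14a1 and Col8a1 at its lower edge.

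RefSeq promoter sequences of build GRCr8, 250 bases before to 50 bases after each transcription start, matched 34 of the 43 genes and 19 of the 24 tested. Col12a1, Col14a1, Col1a1, Col3a1 and Col6a2 were without an entry. The 100 bases before the start are shown for the 3 genes that rose and had an entry and for the 3 with an entry and the largest falls among genes at 10 CPM or more, read along the gene from 5′ to 3′, so that the starts of genes that moved in opposite directions can be compared. Capitals mark a GC box (GGGCGG, or CCGCCC on the other strand), a TATA box (TATAA or TTATA) or a CCAAT box (CCAAT or ATTGG).
Col6a1, rose, chr20:11905590-11905689, plus strand: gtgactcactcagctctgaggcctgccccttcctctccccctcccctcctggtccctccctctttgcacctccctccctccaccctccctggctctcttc
Col15a1, rose, chr5:66297446-66297545, plus strand: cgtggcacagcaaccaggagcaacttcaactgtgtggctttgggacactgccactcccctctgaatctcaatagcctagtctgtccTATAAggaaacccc
Col5a3, rose, chr8:27625949-27626048, minus strand: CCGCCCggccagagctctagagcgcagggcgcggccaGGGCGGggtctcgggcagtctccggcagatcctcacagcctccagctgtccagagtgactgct
Col8a1, fell, chr11:56246682-56246781, plus strand: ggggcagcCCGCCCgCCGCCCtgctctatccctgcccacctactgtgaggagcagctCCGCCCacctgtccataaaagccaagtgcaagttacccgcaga
Col4a5, fell, chrX:109907259-109907358, plus strand: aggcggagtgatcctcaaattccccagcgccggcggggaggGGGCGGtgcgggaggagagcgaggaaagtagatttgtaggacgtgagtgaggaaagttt
Col18a1, fell, chr20:11473545-11473644, plus strand: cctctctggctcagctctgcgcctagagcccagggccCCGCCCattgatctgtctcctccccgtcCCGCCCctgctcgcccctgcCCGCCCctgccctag

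The starts of the 3 genes that fell each held at least 1 GC box within these bases, as did that of Col5a3, which rose, while Col6a1 had none of the motifs and Col15a1 held a TATA box. Falling genes without a GC box were also found, since Col5a2 and Col9a2 had 0 in the whole window. In the whole promoter windows of 300 bases, a GC box was found in 14 of the 19 tested collagens with an entry, in 59.5% of the 9488 promoters of tested genes and in 30.5% of all 33469 promoters. A TATA box was found in 2 of the 19, in 12.0% of promoters of tested genes and in 24.0% of all. A CCAAT box was found in 5 of the 19, in 35.4% of promoters of tested genes and in 34.0% of all. Matches of the same or of different motifs can share bases. A match describes the letters only, and binding was not measured.

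Fibrillar collagens made up most of the collagen RNA. By summed FPKM of all collagen genes they took 74.6 to 76.0% of a BMSCs-OE-NC library and 70.9 to 72.4% of a BMSCs-OE-FNDC5 library. Of the 9 fibrillar genes tested, 2 rose, 2 fell and 5 did not pass (36.9% higher and 38.8% lower over all genes tested). All 9 had 4475 bases or more, and among genes of 4000 bases or more 13.7% rose and 68.3% fell. The median log2 fold change of the 9 was -0.11. With the length trend removed their median was 0.59, and 7 rose and 0 fell (background 38.4% and 33.5%).

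Col1a1, on chromosome 10 from 82745801 to 82762789 in the count file's coordinates, encodes the main chain of collagen I. Its level was 2799, 2894 and 2812 CPM in the 3 BMSCs-OE-NC libraries and 2239, 2274 and 2184 CPM in the 3 BMSCs-OE-FNDC5 libraries. All control libraries were above all FNDC5 libraries, and the mean went from 2835 ± 51.6 to 2232 ± 45.2 CPM (SD, n = 3). The log2 fold change of -0.34 (standard error 0.02, edgeR adjusted p = 5.19e-08) turned to 0.38 with the length trend removed, so the direction of Col1a1 depended on that choice.

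Col3a1, on chromosome 9 from 52023295 to 52059217, encodes the chain of collagen III, which forms thin fibers in soft tissue and often lies in the same fibers as collagen I. It stood at 1739, 1718 and 1686 CPM in BMSCs-OE-NC and at 2933, 2942 and 2895 CPM in BMSCs-OE-FNDC5. The groups were far apart and each was tight. The mean rose from 1715 ± 26.7 to 2924 ± 25.0 CPM (SD, n = 3), and the log2 fold change was 0.77 (standard error 0.02, edgeR adjusted p = 3.04e-11) and 1.35 with the length trend removed. By mean FPKM, Col1a1 was first among the collagens in BMSCs-OE-NC at 479 with Col3a1 second at 354, and in BMSCs-OE-FNDC5 Col3a1 was first at 614 with Col1a1 second at 384. Their ratio, Col3a1 over Col1a1 in FPKM, was 0.760, 0.726 and 0.733 in the control libraries and 1.60, 1.58 and 1.62 in the FNDC5 libraries.

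Col1a2, on chromosome 4, encodes the partner chain that joins products of Col1a1 in collagen I. Its libraries were spread far more widely than those of its partner, at 595, 1100 and 1148 CPM in BMSCs-OE-NC and 746, 1097 and 798 CPM in BMSCs-OE-FNDC5. The groups overlapped, and the means of 948 ± 307 and 879.9 ± 189 CPM (SD, n = 3) gave a log2 fold change of -0.11 (standard error 0.21, edgeR adjusted p = 0.657). The highest control library was 1.93 times the lowest, whereas a spread over 1.5 times was found in 0.403% of the 1737 genes that averaged at least 100 CPM in BMSCs-OE-NC. One library decided the outcome. Without BMSCs-OE-NC replicate 1 the log2 fold change was -0.36 with an edgeR adjusted p of 0.0290. A second gene model described as Col1a2, NEWGENE_621351, held only 2 to 17 counts in a library, and adding it left the log2 ratio of the group means at -0.11. The spread between libraries was nearly the same with the models summed (SD 306.8 CPM in BMSCs-OE-NC and 189.5 CPM in BMSCs-OE-FNDC5).

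Collagen V regulates the width of collagen I fibers. Col5a2 is on chromosome 9 from 52092511 to 52238564, 33.3 kb from the end of Col3a1 and on the opposite strand. It had 963, 982 and 965 CPM in BMSCs-OE-NC and 812, 818 and 803 CPM in BMSCs-OE-FNDC5, with all control libraries higher. Its log2 fold change was -0.26 (standard error 0.02, edgeR adjusted p = 7.79e-07), and 0.28 with the length trend removed. Although the genes are neighbours, Col3a1 rose where Col5a2 fell, and the ratio Col3a1 over Col5a2 in FPKM was 1.64 to 1.70 in the control libraries and 3.38 to 3.40 in the FNDC5 libraries. A strand setting is not given in the sources used here, and these genes do not overlap.

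Col5a1, the main chain of collagen V, read 339.9, 388 and 372 CPM in BMSCs-OE-NC and 359.5, 380.1 and 352 CPM in BMSCs-OE-FNDC5. The groups overlapped, at a log2 fold change of -0.01 (standard error 0.05). Col5a3, the minor chain of collagen V, was low but separated, with 10.4, 13.3 and 12.7 CPM in the controls and 21.96, 21.96 and 22.6 CPM in BMSCs-OE-FNDC5. It rose by 0.87 on the log2 scale (standard error 0.11, edgeR adjusted p = 1.80e-05), and by 1.62 with the length trend removed. With TMM scaling the 3 chains of collagen V thus had a fall, a value near 0 and a rise. With the length trend removed all 3 were higher, at 0.28 for Col5a2, 0.79 for Col5a1 and 1.62 for Col5a3.

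Collagen XI nucleates cartilage fibers, and its chain Col11a1 had 30.5, 28.5 and 28.2 CPM in BMSCs-OE-NC and 29.2, 26.9 and 25.7 CPM in BMSCs-OE-FNDC5. Col27a1, another cartilage-associated fibrillar collagen, had 18.5, 18.8 and 16.1 CPM against 16.1, 18.6 and 13.8 CPM. In both genes the groups overlapped, and the log2 fold changes were -0.09 and -0.14. Col11a2 was below 10 CPM, with 14 to 19 counts in the control libraries and 9 to 15 in the others, and a log2 fold change of -0.17 (standard error 0.39). None of these 3 passed the test with TMM scaling, while Col5a1, Col11a1 and Col27a1 were higher once the length trend was removed, at 0.79, 0.80 and 0.55. Col2a1, the fibrillar collagen that defines cartilage, had 2 counts in 1 library and 0 in the other 5, and Col24a1 had 0 in all.

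**Figure D3:**
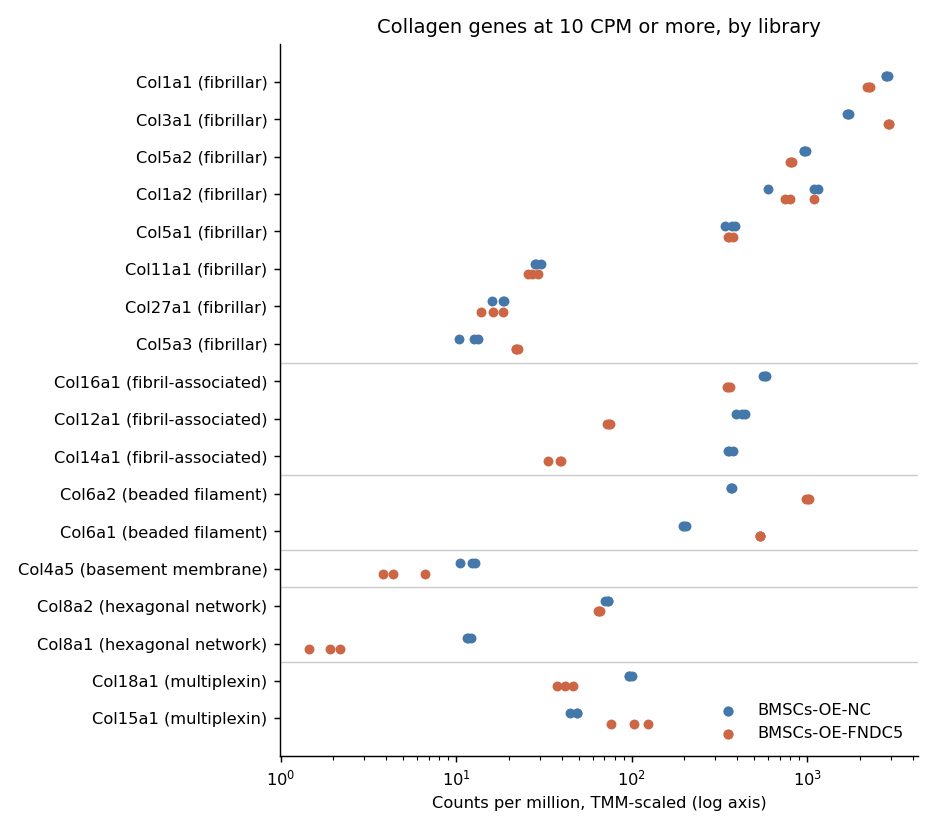
The horizontal axis is the level in CPM, TMM-scaled and on a log axis, with 1 point per library for the 18 collagen genes that averaged 10 CPM or more in a group, grouped by type. The 3 libraries of a group lie close together for most genes, with wider spreads for Col1a2 in both groups and for Col4a5, Col15a1 and Col8a1 in BMSCs-OE-FNDC5, and the widest gaps between groups are those of Col14a1, Col8a1 and Col12a1.

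All 4 tested fibril-associated collagens fell, 3 of them past both thresholds. Over all genes tested 38.8% fell, 17.5% past both thresholds, and among genes of 4000 bases or more 68.3% and 36.6%. Fibril-associated collagens carry short interrupted triple helices and link fibers to one another and to other matrix proteins. Their share of summed collagen FPKM was 11.9 to 12.6% in BMSCs-OE-NC, against 3.92 to 4.22% in BMSCs-OE-FNDC5.

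Col14a1, on chromosome 7 from 95074236 to 95273298, encodes collagen XIV, which binds collagen I fibers and limits their growth. It had 358, 377 and 353 CPM in BMSCs-OE-NC and 39.8, 38.9 and 33.5 CPM in BMSCs-OE-FNDC5, so every control library was several times above every FNDC5 library. The mean was 9.70 times higher in the controls (363 ± 12.9 against 37.4 ± 3.40 CPM, SD, n = 3), the largest fall of the tested collagens at a log2 fold change of -3.28 (standard error 0.06, edgeR adjusted p = 2.87e-12). With the length trend removed it was -2.61. In the order of mean FPKM among collagens, Col14a1 was at place 7 in BMSCs-OE-NC and at place 13 in BMSCs-OE-FNDC5.

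Col12a1, on chromosome 8 from 87040799 to 87158368, encodes collagen XII, the closest relative of collagen XIV, found in tendon and in other tissues under load. It is the longest of the 24 genes tested, with 10599 bases. Its libraries held 394, 439.6 and 425 CPM in BMSCs-OE-NC and 75.5, 74.3 and 72.8 CPM in BMSCs-OE-FNDC5, again with no overlap. The mean was 5.65 times higher in the controls, at a log2 fold change of -2.50 (standard error 0.04, edgeR adjusted p = 2.72e-12), and of -1.44 with the length trend removed.

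Col16a1, on chromosome 5, encodes a collagen found near cell surfaces and thin fibers. It had 562, 584 and 575 CPM in BMSCs-OE-NC and 364, 352.5 and 349.9 CPM in BMSCs-OE-FNDC5, and fell by 0.69 on the log2 scale (standard error 0.03, edgeR adjusted p = 1.46e-09). With the length trend removed the value was -0.04 and did not pass (edgeR adjusted p = 0.218), so the call of Col16a1 rested on the scaling. Col9a2, a chain of collagen IX of cartilage, was counted 18, 20 and 16 times in the control libraries and 2, 0 and 3 times in the others. Its log2 fold change of -2.93 (standard error 0.66, edgeR adjusted p = 0.00188) rests on those few reads. The partner chains Col9a1 and Col9a3 had 0 counts and 1 count over all 6 libraries.

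The beaded filament collagens of the table were Col6a1 and Col6a2, which sit in a row on the plus strand of chromosome 20 (12658065 to 12675561 and 12773427 to 12801180, 97.9 kb apart), and 3 more that had almost no reads. Their products combine with a further chain, that of Col6a3, into collagen VI. Both tested genes rose, and to the same extent, beside 36.9% of all genes tested. Their share of summed collagen FPKM was 9.01 to 9.74% in BMSCs-OE-NC, against 21.7 to 22.7% in BMSCs-OE-FNDC5.

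Col6a1 had 199, 205 and 195 CPM in BMSCs-OE-NC and 542, 542 and 541 CPM in BMSCs-OE-FNDC5. Col6a2 had 366, 374 and 368 CPM in BMSCs-OE-NC and 1020.0, 1014 and 984 CPM in BMSCs-OE-FNDC5. Neither gene's groups came near each other, and the means were 2.71 and 2.72 times higher in BMSCs-OE-FNDC5. The log2 fold changes were 1.44 for Col6a1 (standard error 0.03, edgeR adjusted p = 5.87e-12) and 1.45 for Col6a2 (standard error 0.03, edgeR adjusted p = 2.71e-12). With the length trend removed they were 1.72 and 1.84. The ratio Col6a2 over Col6a1 in FPKM was 1.54 ± 0.0260 in BMSCs-OE-NC and 1.55 ± 0.0287 in BMSCs-OE-FNDC5 (SD, n = 3) and its libraries overlapped.

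With TMM scaling the gene of that further chain did not go with them. No row is named Col6a3, and a row named AABR07068316.1, on chromosome 9, is described as Col6a3. It is no member under the naming rule and was looked up after the values of the others were seen. It had 117, 126 and 125 CPM in BMSCs-OE-NC and 104, 99.6 and 106 CPM in BMSCs-OE-FNDC5, all control libraries being higher. The log2 fold change was -0.25 (standard error 0.04, edgeR adjusted p = 0.000166), but 0.82 with the length trend removed, this gene being 10988 bases long. Its ratio to Col6a1 in FPKM was 0.172 ± 0.00707 in the controls and 0.0533 ± 0.00167 in BMSCs-OE-FNDC5 (SD, n = 3), with no overlap. FPKM divides by a fixed length, so a length trend that differs between the groups stays in this ratio.

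**Figure D4:**
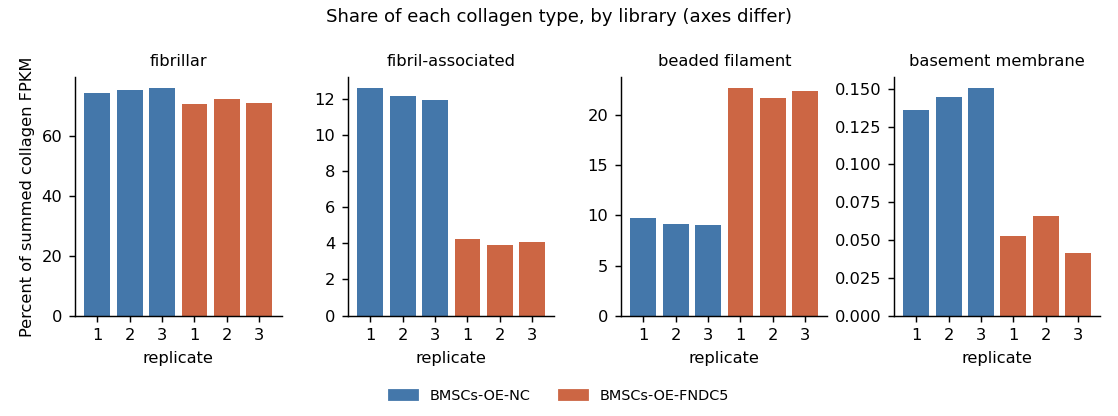
Bars give, for each of the 6 libraries, the percent of the summed FPKM of all 43 collagen genes that came from fibrillar, fibril-associated, beaded filament and basement membrane genes, each panel with its own axis from 0. The fibril-associated share went from about 12% to about 4% and the beaded filament share from about 9% to about 22%, with no overlap between groups in any panel.

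Collagen IV, the basement membrane collagen, was a small part of the collagen RNA, at 0.136 to 0.150% of summed FPKM in BMSCs-OE-NC, against 0.0412 to 0.0659% in BMSCs-OE-FNDC5. The 3 genes of 6 that could be tested all fell past both thresholds. Over all genes tested 17.5% did so, and 36.6% among genes of 4000 bases or more, a length class that holds these 3. Col4a5, which encodes a chain found in kidney and other special basement membranes, had 10.5, 12.4 and 12.8 CPM in BMSCs-OE-NC and 4.36, 6.68 and 3.84 CPM in BMSCs-OE-FNDC5. Every control library was higher, and the log2 fold change was -1.26 (standard error 0.19, edgeR adjusted p = 0.000119).

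Col4a1 and Col4a2 encode the 2 chains of the common collagen IV and are transcribed away from each other on chromosome 16. In RefSeq build GRCr8, 76 bases lie between their starts, whereas the models in the count file are 83.6 kb apart. The bases between them are shown because both genes start at their edges, with the GC box in capitals.
Between Col4a2 and Col4a1, chr16:84885521-84885596, plus strand: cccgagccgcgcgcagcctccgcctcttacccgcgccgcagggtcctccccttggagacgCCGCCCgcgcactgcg

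Col4a1 was counted 34, 36 and 21 times in the BMSCs-OE-NC libraries and 14, 8 and 10 times in the BMSCs-OE-FNDC5 libraries. Col4a2 was counted 37, 43 and 53 times in BMSCs-OE-NC and 17, 16 and 9 times in BMSCs-OE-FNDC5. Both were lower in all FNDC5 libraries, with log2 fold changes of -1.08 for Col4a1 (standard error 0.36, edgeR adjusted p = 0.0172) and -1.23 for Col4a2 (standard error 0.31, edgeR adjusted p = 0.00375). At so few reads these calls were fragile. That of Col4a1 was lost in DESeq2 (adjusted p = 0.0629) and without BMSCs-OE-NC replicate 1 (edgeR adjusted p = 0.0547), BMSCs-OE-NC replicate 2 (edgeR adjusted p = 0.0711) or BMSCs-OE-FNDC5 replicate 2 (edgeR adjusted p = 0.0575). With the length trend removed neither passed, at -0.28 for Col4a1 and -0.63 for Col4a2, and Col4a5 was at -0.47 (edgeR adjusted p = 0.0466). Col4a3, Col4a4 and Col4a6 had at most 5 counts in a library.

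Among the remaining types, Col8a1 and Col8a2 encode the chains of the network-forming collagen VIII of vessel walls and of the cornea. Col8a1, on chromosome 11, had 12.1, 11.6 and 11.7 CPM in BMSCs-OE-NC and 1.46, 2.18 and 1.92 CPM in BMSCs-OE-FNDC5, a fall of more than the spread in either group. Its log2 fold change was -2.67 (standard error 0.17, edgeR adjusted p = 5.61e-08), and -2.16 with the length trend removed. Col8a2 had 73.2, 73.0 and 70.1 CPM in the controls and 64.8, 66.2 and 64.6 CPM in BMSCs-OE-FNDC5. The 3 control libraries were all higher, but the log2 fold change was only -0.15 (standard error 0.04, edgeR adjusted p = 0.00589), did not pass in DESeq2 (adjusted p = 0.0911) and was 0.34 with the length trend removed. The FPKM ratio Col8a2 over Col8a1 was 6.18 to 6.49 in BMSCs-OE-NC, against 31.3 to 46.0 in BMSCs-OE-FNDC5.

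The multiplexins Col15a1 and Col18a1, proteoglycan collagens of the basement membrane zone, moved in opposite directions. Col15a1, on chromosome 5, had 44.6, 48.6 and 48.6 CPM in BMSCs-OE-NC and 104, 76.3 and 125 CPM in BMSCs-OE-FNDC5. The FNDC5 libraries were all higher and also more spread, the highest being 1.63 times the lowest. Col15a1 rose by 1.10 on the log2 scale (standard error 0.14, edgeR adjusted p = 1.92e-05). A second model described as Col15a1, LOC108348074, averaged 37.4 CPM in the controls and 52.5 CPM in BMSCs-OE-FNDC5, at a log2 fold change of 0.49. With both models summed the log2 ratio of the group means was 0.86, below the fold threshold, and how the reads were split between the models is uncertain.

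Col18a1, the source of endostatin, lies 325 kb before Col6a1 on the same strand of chromosome 20 (12225202 to 12332858). It had 96.7, 96.9 and 100 CPM in BMSCs-OE-NC and 37.4, 46.4 and 41.9 CPM in BMSCs-OE-FNDC5, with no overlap. The log2 fold change was -1.23 (standard error 0.07, edgeR adjusted p = 1.47e-08), and -0.61 with the length trend removed, opposite to its neighbours Col6a1 and Col6a2.

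Col23a1, a transmembrane collagen, was counted 56, 99 and 69 times in BMSCs-OE-NC and 14, 13 and 3 times in BMSCs-OE-FNDC5. It fell by 2.46 on the log2 scale (standard error 0.41, edgeR adjusted p = 0.000217), and its gene model of 1197 bases was the shortest of those tested. A second model described as Col23a1, LOC103693323, had 62 to 83 counts in the controls and 3 to 13 in BMSCs-OE-FNDC5, at a log2 fold change of -2.80. Col7a1, the anchoring fibril collagen of skin, was counted 21 to 28 times in the controls and 12 to 15 times in BMSCs-OE-FNDC5. Its libraries did not overlap, yet the log2 fold change of -0.45 (standard error 0.31, edgeR adjusted p = 0.211) did not pass.

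The 19 collagens not tested comprised 7 with 0 counts in all libraries and 12 with at least 1 count, of which none had more than 12 in a library or 40 over the 6. Col17a1, a collagen of hemidesmosomes in epithelia, had the most, with 4, 4 and 2 counts in BMSCs-OE-NC and 12, 9 and 9 in BMSCs-OE-FNDC5. In DESeq2, run without that filter, Col17a1 passed as higher on these few reads (log2 fold change 2.035, adjusted p = 0.0257). Col10a1, the collagen of hypertrophic cartilage, had 2 counts in 1 library. Col20a1, a fibril-associated collagen, had 2 to 10 counts in each library. The others, Col6a4, Col6a5, Col6a6, Col13a1, Col19a1, Col22a1, Col25a1, Col26a1 and Col28a1, had at most 2 counts in a library. Such counts do not show that a gene is silent, only that it was at or near the limit of detection at this depth.

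**Figure D5:**
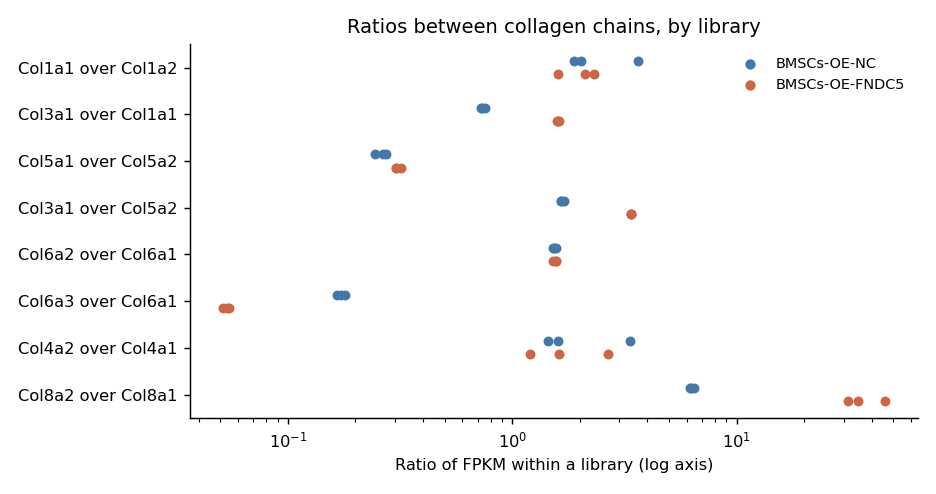
The horizontal axis, on a log scale, is the ratio of FPKM of 2 collagen chains within a library, with 1 point per library. Col6a2 over Col6a1 overlaps between the groups (means 1.54 and 1.55), Col3a1 over Col1a1 and Col8a2 over Col8a1 are shifted up in BMSCs-OE-FNDC5, and Col6a3 (the row AABR07068316.1) over Col6a1 is shifted down.

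In all, the 43 collagens took 0.977 to 1.07% of the counts of a BMSCs-OE-NC library and 0.816 to 0.864% of those of a BMSCs-OE-FNDC5 library. In FPKM, which divides by length and by the submitters' library scaling, the sum over collagens was 1656 to 1810.0 in BMSCs-OE-NC, against 1978 to 2081 in BMSCs-OE-FNDC5. The share of raw counts was thus lower and the FPKM sum higher in BMSCs-OE-FNDC5, and both measures separated the groups. They differ in library scaling as well as in length. The raw share leaves out the TMM factors, which were 1.13 to 1.14 for control libraries and 0.877 to 0.882 for FNDC5 libraries. The parts of scaling and length were not separated, and a TMM-scaled sum was not compared. No direction of the collagen total is therefore drawn from these measures.

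The genes that make, join, bind and degrade collagen were taken from 4 lists. For folding and hydroxylation in the endoplasmic reticulum, 18 of 21 listed genes were tested, and 7 rose and 5 fell while 6 did not pass (36.9% and 38.8% over all genes tested), with a median log2 fold change of 0.02. P4ha3, a prolyl 4-hydroxylase subunit, had 76.4, 74.8 and 74.7 CPM in BMSCs-OE-NC and 186, 205 and 199 CPM in BMSCs-OE-FNDC5 (log2 fold change 1.38, standard error 0.04). The more abundant subunit P4ha1 was at 299.7 to 313 CPM in the controls and 239 to 247 CPM in BMSCs-OE-FNDC5 (log2 fold change -0.32, standard error 0.03). These alternative catalytic subunits of prolyl 4-hydroxylase thus moved in opposite directions. The prolyl isomerase gene Fkbp10 rose (319.6 to 341 CPM against 467 to 490.5 CPM, log2 fold change 0.55, standard error 0.03), and Plod2, which hydroxylates lysines for crosslinks, fell from 296 to 313 CPM to 164 to 167 CPM (log2 fold change -0.89, standard error 0.03).

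For cleavage and crosslinking outside the cell, 13 of 15 listed genes were tested, and 2 rose, 8 fell and 3 did not pass, beside 36.9% higher and 38.8% lower over all genes tested. The median log2 fold change was -0.84, and -0.64 with the length trend removed. Lox, the first lysyl oxidase, had 809.9, 798.5 and 789 CPM in BMSCs-OE-NC and 249.7, 238 and 254 CPM in BMSCs-OE-FNDC5 (log2 fold change -1.69, standard error 0.03). Tgm2, a transglutaminase that crosslinks matrix proteins, went from 691 to 698 CPM to 134 to 138 CPM (log2 fold change -2.35, standard error 0.03). No library of either gene came near the other group. The risers were Loxl3 (44.7 to 47.1 CPM against 59.0 to 63.6 CPM, log2 fold change 0.42, standard error 0.05) and PCOLCE2, an enhancer of procollagen cleavage (37.0 to 42.6 CPM against 90.2 to 106 CPM, log2 fold change 1.27, standard error 0.07).

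Of 11 collagen receptor genes, 7 were tested, 0 rose, 5 fell and 2 did not pass, with a median log2 fold change of -1.02, and of -0.36 with the length trend removed. Over all genes tested 38.8% fell, and 68.3% among genes of 4000 bases or more. The tested receptors had a median length of 4365 bases and 5 of 7 is near the latter share. Itgb1 and Ddr2, at 3658 and 3742 bases, are shorter than that class. Past both thresholds 4 receptors fell, beside 17.5% of all genes tested and 36.6% of that class. Itgb1, the common beta chain of collagen-binding integrins, fell from 668 to 703 CPM to 328 to 346 CPM (log2 fold change -1.02, standard error 0.03), and the collagen-activated kinase Ddr2 fell from 52.5 to 63.9 CPM to 23.8 to 26.4 CPM (log2 fold change -1.20, standard error 0.08). Of 10 genes for collagen degradation, 7 were tested, 0 rose, 5 fell and 2 did not pass (36.9% higher and 38.8% lower over all genes tested), with a median log2 fold change of -0.36, and of 0.04 with the length trend removed. Mrc2, an endocytic collagen receptor, is in both of these lists and is counted in each. Mmp14, a membrane-bound collagenase, went from 852 to 895 CPM to 328 to 340.3 CPM (log2 fold change -1.39, standard error 0.03), and Fap, a fibroblast surface protease, from 48.7 to 51.2 CPM to 11.1 to 13.8 CPM (log2 fold change -2.02, standard error 0.08). Mmp2, the most abundant of the 7 tested, fell by less (3688 to 3907 CPM against 3451 to 3523 CPM, log2 fold change -0.12). With the length trend removed Mmp2 and Mrc2 were at 0.15 and 0.33, while Mmp14, Fap and Mmp13 stayed lower (-1.295, -1.96 and -2.48). Apart from Mrc2, Mmp2 and Mmp13, the 12 genes named from the lists were chosen among those that passed edgeR's test. Whether any list differed from other genes was not tested.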

How the data were processed

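RNA-seq gene counts and FPKM of 3 BMSCs-OE-NC and 3 BMSCs-OE-FNDC5 libraries were used. The authors deposited whole-number read counts per gene and FPKM values. The FPKM values deposited by the authors equal the count divided by gene length and by 1 constant per library. The submitters' processing notes list HTSeq 0.6.0, HISAT2 2.1.0, Bowtie2 2.2.3, TopHat2, CASAVA and DESeq2, with no role or strand setting.

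Counts were tested in R 4.3.3 with edgeR 4.0.16 (filterByExpr, minimum count 10 and minimum total 15, TMM, glmQLFit and glmQLFTest, group as the only term), with Benjamini-Hochberg adjustment over 12104 genes. The thresholds were an adjusted p of 0.05 and, for the stricter count, an absolute log2 fold change of 1. The procedure was tested on simulated data. These held far fewer changed genes than the real libraries and no length trend, so they cannot vouch for calls under such conditions. The alternatives were RLE, upper-quartile or library-size scaling, DESeq2 1.42.0, limma-voom (limma 3.58.1), other filters, a lowess length trend as offset (span 0.3), a replicate block, each library left out, and limma-trend on log2(FPKM + 1) and log2(FPKM + 0.1). Figures were drawn with matplotlib 3.10.9.

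Collagens with a mean of 10 CPM or more in a group were given library by library. From each gene list, up to 2 genes in each direction were named, those with the smallest p among genes that passed at a mean of 10 CPM or more. Mrc2, Mmp2 and Mmp13 were named in addition. The members, types and lists were chosen with earlier results of these data known. The authors' own qPCR, protein and animal experiments were not analysed here.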

Additional observations from a re-analysis of the deposited data

How the results depend on the processing

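Counts and fold changes of the collagens were recomputed under each alternative, for 19 of the 24 where at least 10 counts in each library or a mean FPKM of 1 was required and for all 24 otherwise. The number of collagens that rose was 5 and the number that fell 13. Both moved by over 1.5 times only with the length trend removed, to 11 and 7. In DESeq2 and in edgeR without a filter, which take in collagens not tested above, 6 rose, 4 of them past both thresholds. In the main fit, 3 rose and 9 fell past both thresholds. These became 5 and 5 with the length trend removed, and 5 fell under the filter of at least 10 counts in every library or with log2(FPKM + 1), with or without a filter, where fewer genes were tested or the pseudocount shrinks low genes. The median log2 fold change of the collagens, -0.30, was -0.27 with RLE, -0.41 with upper-quartile scaling, -0.67 with library size only, -0.28 in DESeq2, -0.18 under the stricter count filter, 0.36 with the length trend removed, -0.11 and -0.12 with log2(FPKM + 1) and log2(FPKM + 0.1), and -0.129 without a filter on FPKM. Leaving out 1 library at a time gave medians of -0.387 to -0.297. Over all genes, library size only gave 2659 higher, and 483 higher and 3338 lower past both thresholds, and log2(FPKM + 1) gave 733 lower past both thresholds with a filter and 723 without. Col1a1 (0.38), Col5a2 (0.28), Col8a2 (0.34) and AABR07068316.1 (0.82) turned from lower to higher with the length trend removed, and the cause was not tested.

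With the replicate number as a block, 5 collagens rose and 13 fell, 3 and 9 past both thresholds, the same counts as without it, and no collagen's call changed. The deviations of same-numbered libraries from their group means correlated at 0.0213, -0.0138 and -0.0067, so the numbers were not taken to pair the libraries, and only number 1 correlated best with its own number. At this depth the 6 tested collagens below 10 CPM rest on at most 99 counts in a library.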
